A study of Mus musculus with 12 samples.

Results

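The genes of glycolysis, gluconeogenesis and glycogen metabolism were examined in the livers of wild-type (WT) mice and of Pctp-/- mice, which lack phosphatidylcholine transfer protein (PC-TP) in the whole body. The set held 36 genes, taken as the rows of the expression table whose Ensembl identifier maps to a listed mouse symbol, out of 35275 rows in all. RNA was sequenced from the livers of 12 mice, 3 to a group. The 4 groups were WT mice on chow, Pctp-/- mice on chow, WT mice on a methionine and choline-deficient (MCD) diet and Pctp-/- mice on that diet. The MCD diet withholds precursors of phosphatidylcholine and is used to induce steatosis and liver damage. The mice were male. Their strain, age, time on the diet and fasting state are not given for this experiment in the sources used here, and fasting and feeding move many of the genes described below. The knockout is whole-body, so it was not restricted to hepatocytes.

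The liver takes up glucose after a meal, stores it as glycogen or burns it to pyruvate, and between meals it releases glucose again from glycogen and from lactate, amino acids and glycerol. Glycolysis and gluconeogenesis share their reversible steps and differ at the one-way steps, where separate enzymes such as liver pyruvate kinase and PEPCK set the direction. Insulin and glucose raise the genes of storage and breakdown, while glucagon, cyclic AMP and glucocorticoids raise those of glucose production.

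Levels are given as FPKM, fragment counts divided by transcript length and by library size, so that levels of different genes can be set side by side. The libraries held 30486576 to 55179468 uniquely mapped reads. The share of uniquely mapped reads was 77.6 to 79.4% in the chow libraries and 85.7 to 87.5% in the MCD libraries. The error rate was 0.03% in the chow and 0.01% in the MCD libraries. Diet and these differences in sequencing and mapping cannot be told apart in any comparison of the diets. Pctp itself was at 1.21 to 2.65 FPKM in WT and 0.33 to 0.566 in Pctp-/- livers on chow, and at 3.61 to 7.90 and 0.156 to 0.329 on MCD. Hepatocyte genes dominated every library, with 7 markers summing to 41300 FPKM or more. Alb was the largest of these, with group means of 27788 FPKM in WT and 28262 in Pctp-/- mice on chow, and 43899 and 57218 on MCD. In WT mice on MCD, replicates 1 and 2 also held transcripts of skeletal muscle, with Acta1 (muscle actin) at 12.4 and 12.1 FPKM against 0 in replicate 3 and at most 0.0742 in the other groups. This was an RNA measurement of whole liver, in which fewer cells of a type and less RNA per cell cannot be told apart.

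The members spanned a wide range of levels. Over the 12 libraries, Pck1 had the highest mean at 880 FPKM, followed by Gapdh at 588 and Ldha at 400 FPKM, while Gyg had the lowest at 4.57 FPKM. All 36 passed the filter of a mean of at least 0.5 FPKM and were tested with limma on log2(FPKM + 1), together with the other genes that passed, 12466 in all. Fold changes are on that scale, on which genes of low FPKM appear to change less than they do, and a gene was called at a Benjamini-Hochberg adjusted p under 0.05.

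The MCD diet moved genes of glucose production, glycogen handling and pyruvate entry, in both genotypes. In WT mice 20 of the 36 genes were called, 9 higher and 11 lower on MCD. This share was close to that of all tested genes, of which 57% were called, 34.5% higher and 22.5% lower. In Pctp-/- mice 17 were called, 7 higher and 10 lower, against 50.3% of all tested genes, 26% higher and 24.4% lower. The median log2 fold change of the members was 0.03 in WT and -0.08 in Pctp-/- mice, and that of all tested genes 0.11 and 0.04. The shift of all genes in WT mice fell to 0.01 when libraries were scaled by the median of their ratios, and small rises in WT are read against it. A total of 15 members were called in the same direction in both genotypes, 6 higher and 9 lower, while 40.8% of all tested genes were. The plot of all members by library shows the blocks that moved together.

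**Figure D1:**
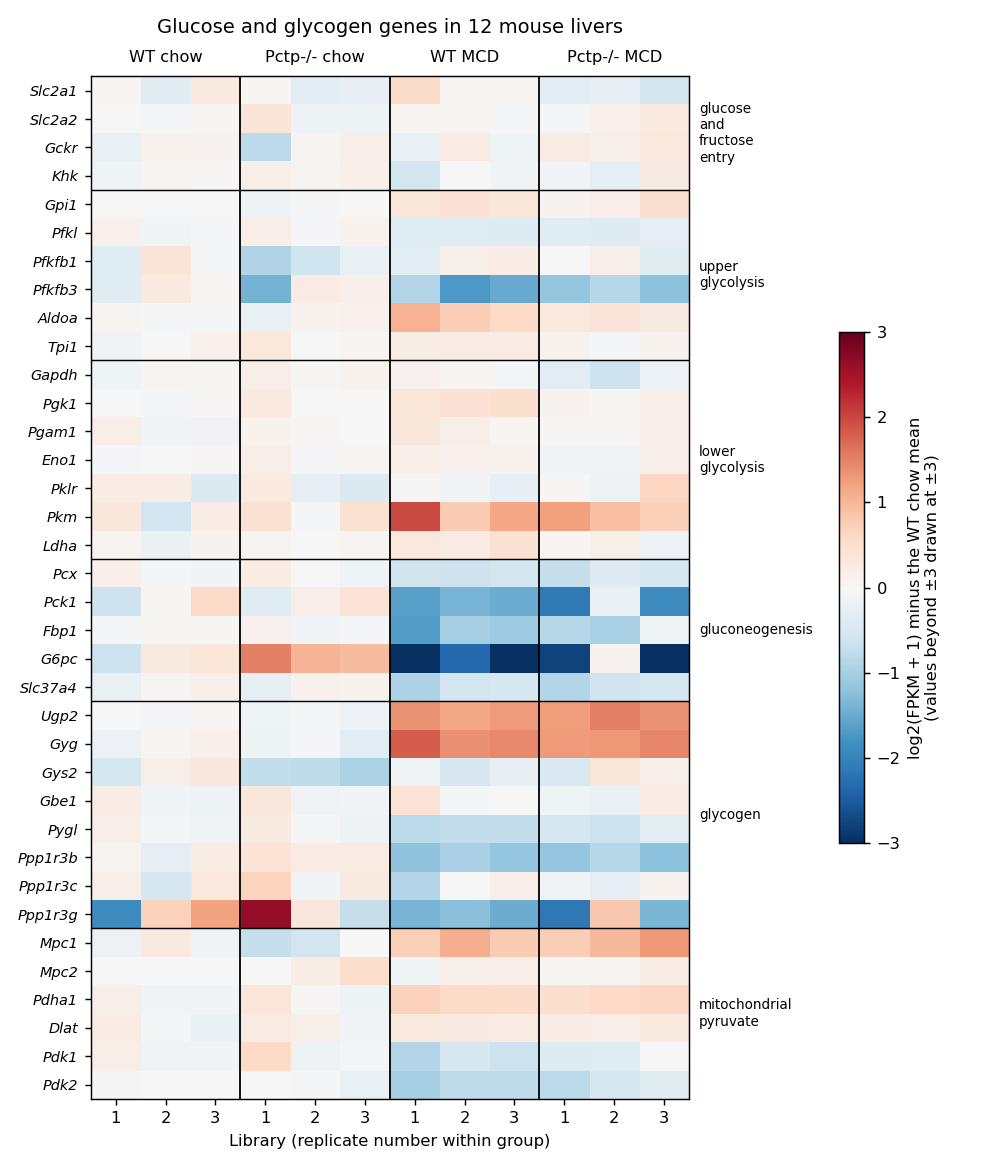
The 36 genes in rows, grouped by role, and the 12 livers in columns, colored by log2(FPKM + 1) minus the mean of the WT chow livers, with values beyond 3 drawn at 3. All gluconeogenesis genes are lower in the WT MCD livers, and Ugp2 and Gyg are higher in all 6 MCD livers. G6pc of Pctp-/- replicate 2 on MCD stands apart from its group.

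The promoters of the members were read for sequence letters that are known to bind regulators of these genes, in windows from 250 bases before to 50 after each start (RefSeq, GRCm38.p6). Of the 36 members 34 had a window. Gys2 and Ppp1r3b were not matched. The letters ACGTG, the core of the element bound by hypoxia-inducible factors, occurred on either strand in 16 of the 34 genes (47.1%) and in 21.8% of all 27025 genes with a window. The E-box CACGTG, which holds those letters on both strands and is bound by MLX family and USF factors, occurred in 7 members (20.6%) and in 8.09% of all genes. The cyclic AMP response element TGACGTCA occurred in 1 member (2.94%), Ldha, and in 2.03% of all genes, and the forkhead letters TGTTTAC in 0 members and 4.05% of all genes. The shorter form TGACGT, chosen after the data were seen, occurred in 6 members (17.6%), Pck1 and Slc37a4 among them, and in 8.37% of all genes. The 160 bases before the start are shown for Pgk1 and Ldha, glycolysis genes that were higher on MCD in WT mice, and for Pck1 and G6pc, the gluconeogenesis genes that fell most in Pctp-/- mice. All lie on the plus strand, and capitals mark ACGTG and TGACGT on either strand.
Pgk1, chrX:106186940-106187099: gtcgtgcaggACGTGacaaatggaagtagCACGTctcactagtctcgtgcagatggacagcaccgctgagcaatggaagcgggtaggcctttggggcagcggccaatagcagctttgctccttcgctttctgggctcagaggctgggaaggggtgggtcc
Ldha, chr7:46845644-46845803: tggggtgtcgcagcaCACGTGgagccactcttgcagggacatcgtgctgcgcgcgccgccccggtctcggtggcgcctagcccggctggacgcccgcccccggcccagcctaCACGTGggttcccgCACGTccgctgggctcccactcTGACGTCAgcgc
Pck1, chr2:173152913-173153072: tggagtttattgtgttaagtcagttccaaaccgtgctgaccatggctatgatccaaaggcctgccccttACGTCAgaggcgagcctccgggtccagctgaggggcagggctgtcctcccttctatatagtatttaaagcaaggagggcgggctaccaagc
G6pc, chr11:101367556-101367715: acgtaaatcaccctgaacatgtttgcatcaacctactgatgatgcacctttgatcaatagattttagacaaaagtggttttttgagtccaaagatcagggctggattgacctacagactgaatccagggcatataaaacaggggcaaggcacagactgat
Pgk1 held ACGTG at positions -150 and -131 from the start. Ldha held 2 E-boxes, at -145 and -48, and the full cyclic AMP element at -12. Pck1 held the shorter form at -91 and no ACGTG, and this stretch of G6pc held neither. A match of letters is a description and was not tied to binding in these livers.

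All 5 gluconeogenesis genes of the set were called lower on MCD in both genotypes. Of all tested genes 22.5% were called lower in WT and 24.4% in Pctp-/- mice. Of 10 other gluconeogenesis genes tested, 2 were called lower in WT and 3 in Pctp-/- mice. G6pc encodes the catalytic subunit of the phosphatase that frees glucose in the last step of the pathway. In WT mice G6pc was at 146, 279 and 298 FPKM on chow and at 25.5, 44.7 and 23.2 on MCD. In Pctp-/- mice it was at 661, 468 and 448 FPKM on chow and at 32.7, 248 and 15.8 on MCD. Every MCD liver lay below every chow liver of its genotype, and Pctp-/- replicate 2 on MCD lay within the range of the WT chow livers. The log2 fold change of G6pc was -2.90 (standard error 0.72, adjusted p = 0.00461, limma) in WT and -3.32 (standard error 0.72, adjusted p = 0.00244) in Pctp-/- mice. Without that replicate it was -4.45 in Pctp-/- mice.

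Pck1 encodes cytosolic PEPCK, which turns oxaloacetate into phosphoenolpyruvate and commits carbon to glucose. In WT mice Pck1 was at 771, 1240.5 and 1776 FPKM on chow and at 388, 451 and 426 on MCD. The Pctp-/- livers were at 927, 1362 and 1578 FPKM on chow and at 272, 1037 and 329 on MCD. The WT groups did not overlap, whereas in Pctp-/- mice replicate 2 on MCD lay above replicate 1 on chow. On the log2 scale the change was -1.50 (standard error 0.43, adjusted p = 0.0099, limma) in WT and -1.47 (standard error 0.43, adjusted p = 0.0128) in Pctp-/- mice. The call in Pctp-/- mice was lost without replicate 1 or replicate 3 on MCD (adjusted p up to 0.06) and the log2 fold change was -2.07 without replicate 2. The call in WT mice was lost without replicates 1 and 2 on MCD together, the livers with muscle transcripts (log2 fold change -1.48, adjusted p = 0.105).

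Fbp1 encodes fructose bisphosphatase, which opposes phosphofructokinase. Fbp1 was at 414, 443 and 446 FPKM in WT chow livers and at 136, 218 and 205 in WT MCD livers. Levels in Pctp-/- mice were at 472, 410.2 and 415 FPKM on chow and at 239, 221 and 397 on MCD. The MCD livers lay below the chow livers in both genotypes, with replicate 3 of the Pctp-/- mice closest to chow. This gave a log2 fold change of -1.25 (standard error 0.21, adjusted p = 0.000333, limma) in WT and -0.64 (standard error 0.21, adjusted p = 0.0226) in Pctp-/- mice, and the latter call was lost without Pctp-/- replicate 1 on chow or replicate 1 or 2 on MCD (adjusted p up to 0.0981).

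The remaining pair of gluconeogenesis genes had smaller log2 fold changes in WT mice, close to those in Pctp-/- mice. Pcx, pyruvate carboxylase of the mitochondrion, fell from 183 ± 18.3 to 121 ± 2.5 FPKM (SD, n = 3) in WT and from 188 ± 23.2 to 126 ± 13.9 FPKM (SD, n = 3) in Pctp-/- mice. Slc37a4, which carries glucose phosphate into the endoplasmic reticulum for the G6pc enzyme, fell from 131 ± 17.7 to 82.1 ± 12.1 FPKM (SD, n = 3) in WT and from 129.5 ± 18.9 to 82.0 ± 10.8 FPKM (SD, n = 3) in Pctp-/- mice. Both were called in both genotypes, with log2 fold changes of -0.57 to -0.67. The median over the 5 genes was -1.25 in WT and -0.65 in Pctp-/- mice.

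**Figure D2:**
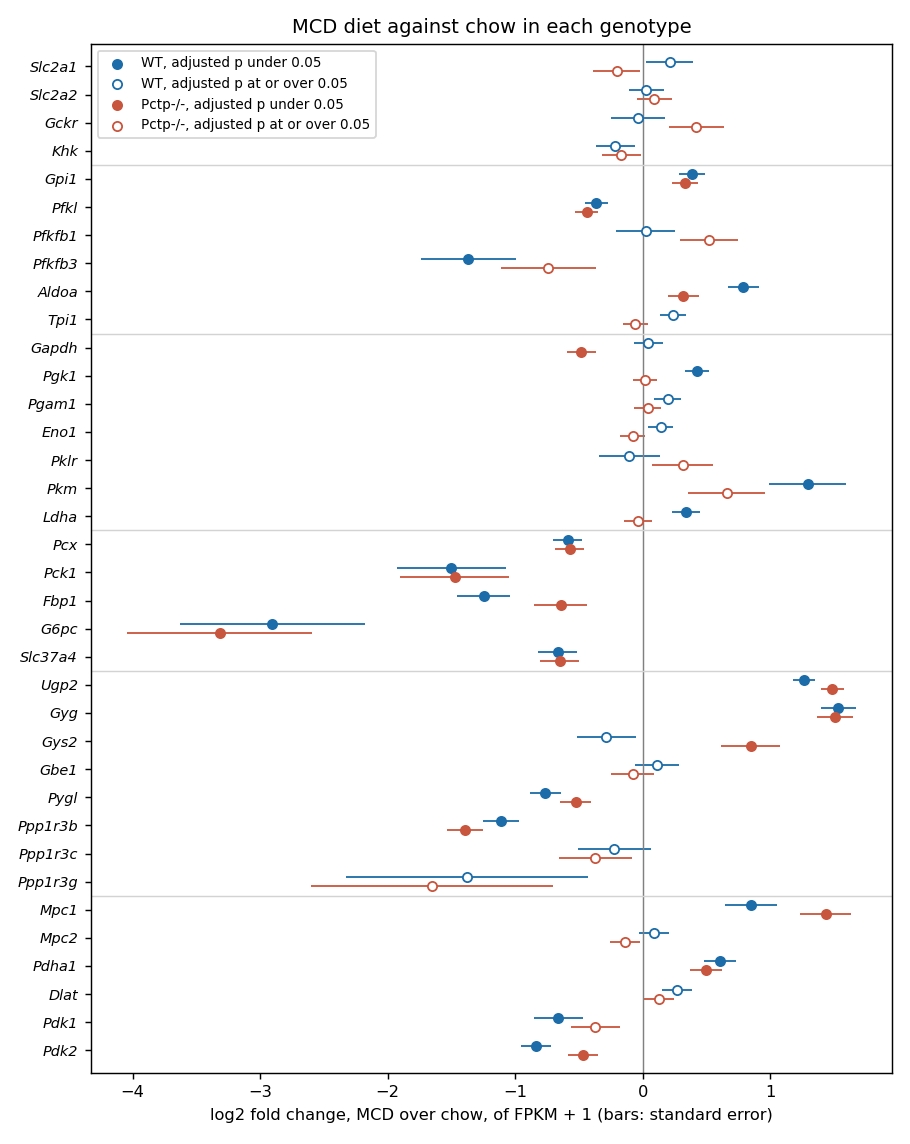
The log2 fold change of each member, MCD over chow, in WT (blue) and Pctp-/- (red) mice, with bars of 1 standard error, filled where the adjusted p was under 0.05. G6pc lies at -2.90 and -3.32, and Ugp2, Gyg and Mpc1 lie on the other side of 0 in both genotypes.

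Glycogen genes moved in both directions, and Ugp2 and Gyg rose on MCD while Pygl and Ppp1r3b fell. Ugp2 makes UDP-glucose, the donor for glycogen. Ugp2 was at 80.1, 76.6 and 83.4 FPKM in WT chow livers and at 206, 181 and 196 in WT MCD livers. In Pctp-/- mice Ugp2 was at 73.4, 76.3 and 71.2 FPKM on chow and at 192, 231 and 203 on MCD. Every MCD liver exceeded every chow liver by a wide margin, with a log2 fold change of 1.27 (standard error 0.09, adjusted p = 5.15e-07, limma) in WT and 1.49 (standard error 0.09, adjusted p = 2.06e-07) in Pctp-/- mice. An antisense transcript overlaps Ugp2 exons and strand-specific counting is not stated, so a share of its reads is uncertain. The same holds for Slc2a1, Gpi1, Pfkfb1, Aldoa, Tpi1, Gapdh, Pklr, Mpc1 and Pdha1, whose exons overlap genes on the other strand. Exons of Pkm overlap a gene on the same strand.

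Gyg encodes glycogenin, the protein primer on which glycogen is built. Gyg was at 1.66, 2.10 and 2.35 FPKM in WT chow livers and at 9.58, 6.77 and 7.16 in WT MCD livers. The Pctp-/- livers were at 1.73, 1.94 and 1.44 FPKM on chow and at 6.34, 6.41 and 7.30 on MCD. The groups were far apart in both genotypes, with a log2 fold change of 1.53 (standard error 0.14, adjusted p = 3.04e-06, limma) in WT and 1.51 (standard error 0.14, adjusted p = 4.77e-06) in Pctp-/- mice.

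Pygl, the liver glycogen phosphorylase, was at 161, 138 and 133 FPKM in WT chow livers and at 81.6, 85.4 and 85.7 in WT MCD livers. Levels of Pygl in Pctp-/- mice were at 173, 139 and 129 FPKM on chow and at 99.4, 91.6 and 113 on MCD. The diets did not overlap in either genotype, and Pygl was lower on MCD by a log2 fold change of -0.76 (standard error 0.12, adjusted p = 0.000215, limma) in WT and -0.53 (standard error 0.12, adjusted p = 0.00334) in Pctp-/- mice.

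Ppp1r3b encodes the hepatic subunit that directs protein phosphatase to glycogen and activates glycogen synthase. Ppp1r3b was at 73.0, 55.7 and 80.3 FPKM in WT chow livers and at 29.3, 34.7 and 30.2 in WT MCD livers. In Pctp-/- mice it was at 91.7, 82.2 and 82.5 FPKM on chow and at 30.03, 37.8 and 28.6 on MCD. All 6 MCD livers lay below all 6 chow livers, with a log2 fold change of -1.11 (standard error 0.14, adjusted p = 3.99e-05, limma) in WT and -1.39 (standard error 0.14, adjusted p = 9.52e-06) in Pctp-/- mice.

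Gys2, the liver glycogen synthase, had the largest difference between the diet effects of the genotypes among the members. Gys2 was at 38.0, 62.9 and 70.4 FPKM in WT chow livers and at 50.5, 39.5 and 46.2 in WT MCD livers, which overlapped. The Pctp-/- livers were at 32.6, 32.1 and 28.1 FPKM on chow and at 39.98, 71.8 and 61.9 on MCD, which did not. The log2 fold change on MCD was -0.29 (standard error 0.23, adjusted p = 0.309, limma) in WT and 0.85 (standard error 0.23, adjusted p = 0.0091) in Pctp-/- mice. The difference of these effects was 1.13 (standard error 0.33), which did not pass the test across all genes (adjusted p = 0.148).

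The other 3 glycogen genes were not called in either genotype. Gbe1, the branching enzyme, had group means of 26.2 to 29.0 FPKM. Ppp1r3c, another glycogen targeting subunit, had group means of 23.9 to 33.4 FPKM. Ppp1r3g, a targeting subunit that responds to feeding, ranged from 0.248 FPKM in Pctp-/- replicate 1 on MCD to 33.4 FPKM in Pctp-/- replicate 1 on chow. Its spread within groups, an SD of 1.42 on the log2 scale, exceeded that of nearly all tested genes. Over the 8 glycogen genes, 4 were called in WT, 2 higher and 2 lower, and 5 in Pctp-/- mice, 3 higher and 2 lower. These shares, 50% and 62.5%, stood against 57% and 50.3% of all tested genes. The ratio of Gys2 to Pygl within a liver was 0.236 to 0.528 in WT and 0.188 to 0.231 in Pctp-/- mice on chow, and 0.462 to 0.618 and 0.402 to 0.784 on MCD.

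**Figure D3:**
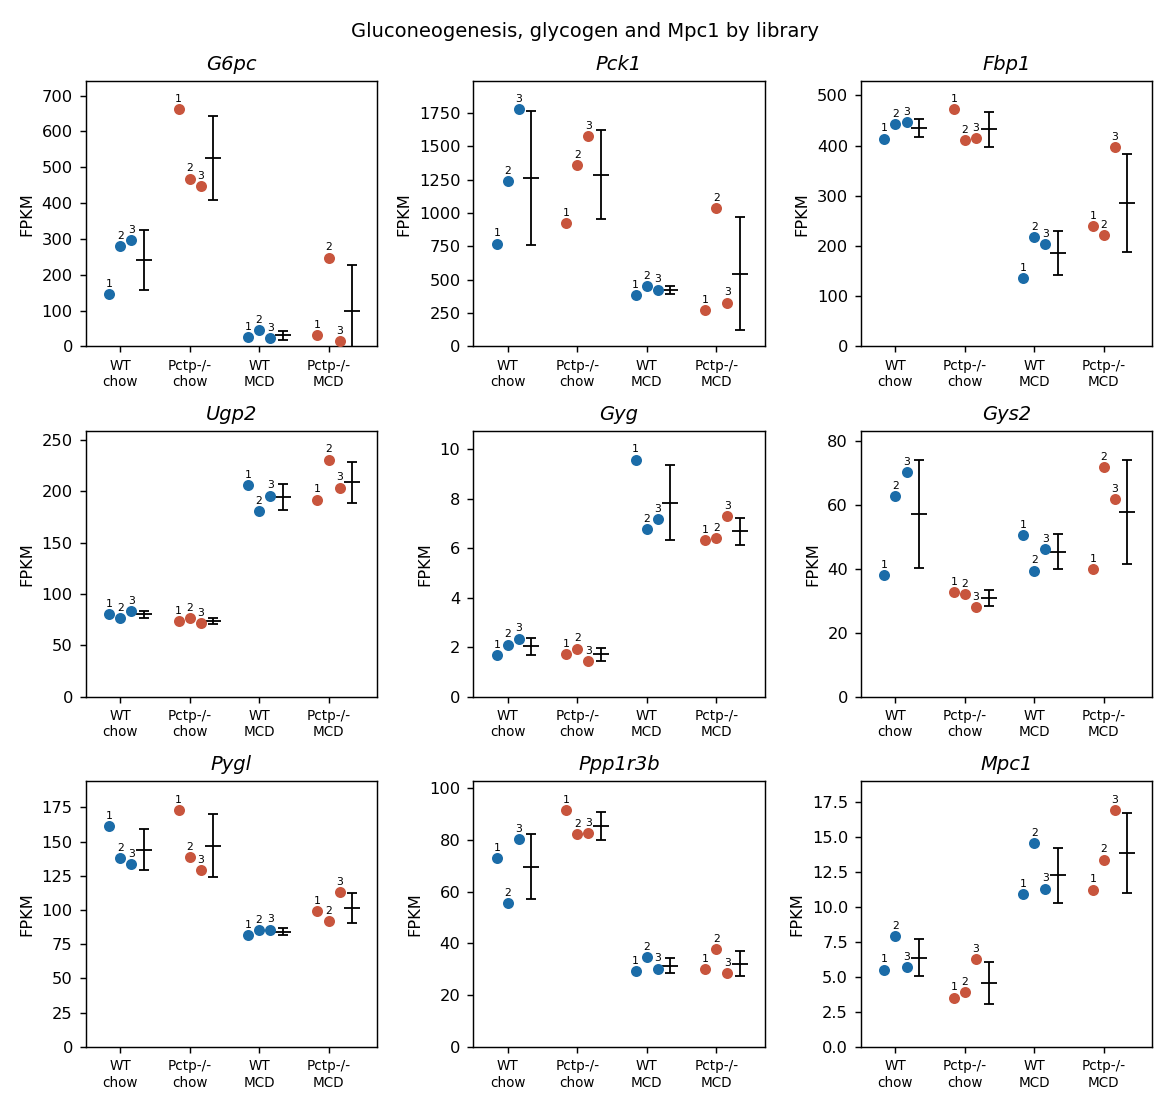
FPKM of 9 members in each liver, WT in blue and Pctp-/- in red, numbered by replicate, with the mean and SD of the 3 livers as a bar to the right of each group (the lower end for G6pc in Pctp-/- mice on MCD falls below 0 and is not drawn). Ugp2, Gyg and Mpc1 rose and Ppp1r3b fell in both genotypes, and replicate 2 of the Pctp-/- MCD livers is high for G6pc and Pck1.

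None of the 4 genes of sugar entry was called in either genotype. Slc2a2, the main glucose transporter of hepatocytes, was at 137, 130.5 and 143 FPKM in WT chow livers and at 145, 142 and 132 in WT MCD livers. Levels of Slc2a2 in Pctp-/- mice were at 179, 124 and 122 FPKM on chow and at 132, 149 and 167 on MCD. These values overlapped fully, with a log2 fold change of 0.03 (standard error 0.14, adjusted p = 0.873, limma) in WT, a value that turned negative under some scalings, and 0.09 (standard error 0.14, adjusted p = 0.609) in Pctp-/- mice. Khk, which commits fructose to the liver's sugar pathways, was at 339, 394 and 378 FPKM in WT chow livers and at 254, 365 and 348 in WT MCD livers. In Pctp-/- mice Khk was at 417, 389 and 413 FPKM on chow and at 346, 306 and 446 on MCD. Its groups overlapped as well, with a log2 fold change of -0.22 (standard error 0.15, adjusted p = 0.249, limma) in WT and -0.17 (standard error 0.15, adjusted p = 0.384) in Pctp-/- mice. Gckr, the protein that holds glucokinase in the nucleus, had group means of 142 to 183 FPKM. Slc2a1, the widely expressed glucose transporter, was at 3.15 to 7.79 FPKM over all livers.

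In upper glycolysis Pfkl fell and Gpi1 and Aldoa rose in both genotypes, Pfkfb3 fell in WT mice, and Pfkfb1 and Tpi1 were not called. Pfkl, the committed step, was at 18.6 to 21.9 FPKM in WT and 19.2 to 22.7 in Pctp-/- chow livers and at 14.9 to 15.3 and 15.0 to 15.9 in MCD livers. It was called lower in both genotypes, with log2 fold changes of -0.36 and -0.44. Gpi1, which interconverts glucose and fructose phosphates, was called higher in both, with log2 fold changes of 0.39 in WT and 0.33 in Pctp-/- mice, and the latter call was lost without Pctp-/- replicate 3 on MCD (adjusted p = 0.0656). The WT calls of Pfkl and Gpi1 were lost without WT replicates 1 and 2 on MCD (adjusted p = 0.0535 and 0.0908). Pfkfb3, whose product makes the activator of phosphofructokinase, was at 5.58, 9.37 and 7.75 FPKM in WT chow livers and fell to 3.61, 1.55 and 1.97 FPKM on MCD (log2 fold change -1.37, adjusted p = 0.00787, limma). The Pctp-/- livers were at 2.18, 8.96 and 8.40 FPKM on chow, where replicate 1 lay below every MCD liver of that genotype, and the effect of MCD was not called (adjusted p = 0.117). The hepatic isoenzyme Pfkfb1 was not called in either genotype, with a log2 fold change of 0.52 (adjusted p = 0.0784) in Pctp-/- mice.

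Aldoa, the aldolase of muscle and most tissues other than hepatocytes, was at 72.7, 66.95 and 67.1 FPKM in WT chow livers and at 143, 115 and 104 in WT MCD livers. Levels of Aldoa in Pctp-/- mice were at 58.9, 74.3 and 75.8 FPKM on chow and at 86.5, 89.98 and 83.6 on MCD. All MCD livers lay above all chow livers, and the WT MCD livers above the Pctp-/- MCD livers. On the log2 scale the change was 0.79 (standard error 0.12, adjusted p = 0.000208, limma) in WT and 0.32 (standard error 0.12, adjusted p = 0.0488) in Pctp-/- mice. The latter call was lost under 13 of 23 alternatives, among them leaving out any one of 9 libraries. Without WT replicates 1 and 2 on MCD, the livers with muscle transcripts, the WT value was 0.59 (adjusted p = 0.0126). Tpi1, the triose phosphate isomerase, was not called in either genotype (adjusted p = 0.0571 in WT).

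Of the 7 lower glycolysis genes, 3 were called higher on MCD in WT and 1 lower in Pctp-/- mice, and none in both, against 34.5% of all tested genes called higher in WT and 24.4% called lower in Pctp-/- mice. Pklr, the liver pyruvate kinase whose transcription follows glucose, was at 84.3, 84.5 and 53.1 FPKM in WT chow livers and at 74.0, 67.97 and 60.4 in WT MCD livers. In Pctp-/- mice it was at 88.5, 59.6 and 53.3 FPKM on chow and at 74.1, 64.9 and 114 on MCD. The diets overlapped in both genotypes, with a log2 fold change of -0.10 (standard error 0.24, adjusted p = 0.726, limma) in WT and 0.32 (standard error 0.24, adjusted p = 0.294) in Pctp-/- mice. Pkm, the pyruvate kinase of most other cells, was chosen for its values after they were seen. It was at 8.97, 4.33 and 8.19 FPKM in WT chow livers and at 29.9, 12.3 and 16.5 in WT MCD livers, and replicate 1 on MCD stood highest. The Pctp-/- livers were at 9.89, 6.52 and 9.87 FPKM on chow and at 17.6, 13.6 and 11.9 on MCD. The diets did not overlap in either genotype. The log2 fold change of Pkm was 1.29 (standard error 0.30, adjusted p = 0.00313, limma) in WT and 0.66 (standard error 0.30, adjusted p = 0.0888) in Pctp-/- mice. The ratio of Pklr to Pkm within a liver was 6.48 to 19.5 in WT chow and 2.48 to 5.52 in WT MCD livers, and 5.41 to 9.14 and 4.21 to 9.54 in Pctp-/- livers.

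Pgk1 and Ldha, which make the first ATP of the pathway and convert pyruvate to lactate, were called higher on MCD in WT mice, with log2 fold changes of 0.43 (standard error 0.09, adjusted p = 0.00211, limma) and 0.34 (standard error 0.11, adjusted p = 0.0207). Pgk1 rose from 143 ± 3.8 to 193 ± 9.03 FPKM (SD, n = 3) and Ldha from 371 ± 42.5 to 468 ± 35.6 FPKM (SD, n = 3). Both calls were lost when libraries were scaled by the median of their ratios (adjusted p = 0.0529 and 0.185), which removed the shift of all genes, and that of Ldha also without WT replicate 2 on chow or replicate 3 on MCD. Neither was called in Pctp-/- mice, in which Gapdh fell from 650.1 ± 32.2 to 469 ± 70.4 FPKM (SD, n = 3), a log2 fold change of -0.48 (standard error 0.11, adjusted p = 0.00429, limma). Pgam1 and Eno1, the mutase and enolase that follow, were not called in either genotype. Gapdh, Aldoa, Tpi1, Pgk1, Pgam1, Eno1 and Ldha have near-identical processed pseudogenes, and their values depend on how the authors' counting split shared reads.

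Most tested markers of macrophages and stellate cells had higher fitted levels on MCD as well. Of 12 macrophage and monocyte markers 11 were tested, of which 10 were called higher on MCD in WT and 5 in Pctp-/- mice, with a median log2 fold change of 1.40 and 0.79. Their summed level was 71.3 to 121 FPKM in WT and 63.8 to 170.4 in Pctp-/- chow livers, and 280.0 to 547 and 288 to 357 in MCD livers, and none of them was at 0 throughout a group. WT replicate 1 on MCD was highest for Pkm, Aldoa, Cd68 (43.1 FPKM) and Lyz2 (337 FPKM), as the plot of glycolysis genes beside these markers shows. Of 10 stellate cell and fibroblast markers 5 were called higher in WT and 4 in Pctp-/- mice, and 2 had negative log2 fold changes in each. Of all tested genes 34.5% were called higher in WT and 26% in Pctp-/- mice. The summed level of 6 endothelial markers was 40.7 to 50.3 FPKM in WT chow and 54.8 to 67.7 in WT MCD livers, with 2 called higher, and 41.3 to 62.8 and 49.0 to 54.1 FPKM in Pctp-/- livers, with 0 called. Of the 7 hepatocyte markers 1 was called higher and 3 lower on MCD in WT, and 1 higher and 2 lower in Pctp-/- mice. Of 4 erythrocyte markers tested, 2 were called lower on MCD in each genotype, against 22.5% and 24.4% of all tested genes. The part of these cells, and of the muscle transcripts, in the levels of Pkm, Aldoa, Pgk1 and Ldha was not tested. Without the pair of livers that held muscle transcripts, Pkm, Pgk1 and Ldha were still called in WT mice, with log2 fold changes of 1.15, 0.49 and 0.46, the remaining liver being assumed to vary like the other groups. The WT calls of Gpi1, Pfkl, Pck1, Slc37a4, Mpc1 and Pdk1 were lost in that fit, with adjusted p of 0.0535 to 0.105 and log2 fold changes of 0.36, -0.38, -1.48, -0.50, 0.75 and -0.63.

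Of 6 genes for the entry of pyruvate into the mitochondrion and its oxidation, Mpc1 and Pdha1 rose and Pdk2 fell on MCD in both genotypes. Mpc1, a subunit of the mitochondrial pyruvate carrier, was at 5.51, 7.93 and 5.70 FPKM in WT chow livers and at 10.9, 14.5 and 11.3 in WT MCD livers. Levels of Mpc1 in Pctp-/- mice were at 3.52, 3.89 and 6.26 FPKM on chow and at 11.2, 13.4 and 16.96 on MCD. Every MCD liver exceeded every chow liver, with a log2 fold change of 0.85 (standard error 0.20, adjusted p = 0.00335, limma) in WT and 1.43 (standard error 0.20, adjusted p = 0.000114) in Pctp-/- mice. An antisense transcript also overlaps Mpc1 exons. The partner subunit Mpc2 had group means of 55.5 to 67.0 FPKM and was not called in either genotype.

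Pdk2, a kinase that switches pyruvate dehydrogenase off, was at 57.6, 59.7 and 59.0 FPKM in WT chow livers and at 29.0, 34.3 and 34.5 in WT MCD livers. Among Pctp-/- mice Pdk2 was at 58.9, 56.0 and 50.5 FPKM on chow and at 33.1, 40.8 and 45.5 on MCD. All 6 MCD livers lay below all 6 chow livers, with a log2 fold change of -0.83 (standard error 0.12, adjusted p = 8.4e-05, limma) in WT and -0.47 (standard error 0.12, adjusted p = 0.0053) in Pctp-/- mice. Pdk1, another such kinase, was called lower in WT mice (log2 fold change -0.66, adjusted p = 0.0114) and not in Pctp-/- mice (-0.37, adjusted p = 0.127). Pdha1, the catalytic subunit of pyruvate dehydrogenase, was called higher in both genotypes, with log2 fold changes of 0.60 and 0.49. Dlat, the acetyltransferase of that complex, was not called in either.

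Between the genotypes none of the 36 members was called. On chow 0.136% and on MCD 0.818% of all tested genes were called, and 0.0963% for the difference of the diet effects. At an unadjusted p under 0.05 there were 3 members on chow, 7 on MCD and 6 for the difference, against 6.98%, 16.3% and 15.1% of all tested genes. The smallest p an exact two-sided permutation test of 3 against 3 mice could give is 0.1, so single genes were compared in the fit across all genes. Pctp lies on chromosome 11, as do the members Ugp2, G6pc and Pdk2. The part of DNA linked to the knockout allele in differences between genotypes was not tested.

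On chow, Gys2 and G6pc had the largest absolute log2 fold changes between the genotypes among the members. All 3 Pctp-/- livers lay below all 3 WT livers for Gys2, with a log2 fold change of -0.82 (standard error 0.23, adjusted p = 0.314, limma). For G6pc the Pctp-/- livers, at 448 FPKM or more, lay above the WT livers, at 298 or less, with a log2 fold change of 1.17 (standard error 0.72, adjusted p = 0.837). The ratio of G6pc to Pklr, chosen after the values were seen, was 1.73 to 5.61 in WT and 7.48 to 8.40 in Pctp-/- livers on chow. In all, 3 members lay above WT without overlap on chow (G6pc, Ppp1r3b and Mpc2) and 2 below (Ugp2 and Gys2), among 5.17% and 5.38% of all tested genes. After scaling by the median of ratios, G6pc and Mpc2 above and Gys2 below did not overlap. The ratio of Pck1 to Pklr overlapped, at 9.15 to 33.5 in WT and 10.5 to 29.6 in Pctp-/- livers, and it was 5.24 to 7.06 and 2.90 to 16 on MCD.

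On MCD, 6 of 7 lower glycolysis genes had lower fitted levels in Pctp-/- than in WT livers, as were 8767 of the 12466 tested genes. The groups did not overlap for 6 members below WT (Slc2a1, Aldoa, Tpi1, Gapdh, Pgk1 and Ldha) and 3 above (Fbp1, Pygl and Pdk1), among 21.1% and 5.5% of all tested genes. The log2 fold changes of Slc2a1, Aldoa, Gapdh, Pgk1 and Ldha were -0.59, -0.46, -0.42, -0.31 and -0.32, with adjusted p of 0.104 to 0.183 by limma, and the median of all tested genes was -0.09. Without WT replicates 1 and 2 on MCD, the livers with muscle transcripts, they were -0.43, -0.26, -0.32, -0.37 and -0.44, with adjusted p of 0.943 to 0.999. Markers of other cells had lower fitted levels in the same comparison, 10 of 11 for macrophages, 9 of 10 for stellate cells and 6 of 6 for endothelium, with 0 called and median log2 fold changes of -0.41, -0.35 and -0.21. Their summed levels in Pctp-/- and WT MCD livers were 288 to 357 and 280.0 to 547 FPKM, 147 to 176 and 150.2 to 226 FPKM, and 49.0 to 54.1 and 54.8 to 67.7 FPKM, and their part in these differences was not tested. Of the 7 hepatocyte markers 5 had higher and 2 lower fitted levels, with 0 called and a median log2 fold change of 0.165. Scaling by the median of ratios brought the median of all tested genes to -0.01. After it, 4 members lay below WT without overlap (Slc2a1, Aldoa, Gapdh and Pgk1), among 10.6% of all tested genes. Above WT lay 8 (Gckr, Pfkl, Pklr, Fbp1, Ugp2, Pygl, Dlat and Pdk1), among 10.7%. Fbp1 had a log2 fold change of 0.59 (adjusted p = 0.189) and Pdk2 of 0.27 (adjusted p = 0.274). The ratio of Slc2a2 to Slc2a1 was 18.6 to 26.9 in WT and 34.7 to 53.1 in Pctp-/- MCD livers, and 22.3 to 35.0 and 29.5 to 34.1 on chow.

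The difference between the diet effects of the genotypes had an unadjusted p under 0.05 for Gys2 (1.13), Pdk2 (0.36), Gapdh (-0.52), Aldoa (-0.47), Pgk1 (-0.41) and Ldha (-0.38), as Pctp-/- minus WT on the log2 scale, with adjusted p of 0.148 to 0.323. These values share the WT and Pctp-/- MCD livers with the comparison above and are not a separate line of evidence. For Pck1 and G6pc the genotype difference on MCD, 0.11 and 0.76, turned to -0.49 and -0.37 without Pctp-/- replicate 2.

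**Figure D4:**
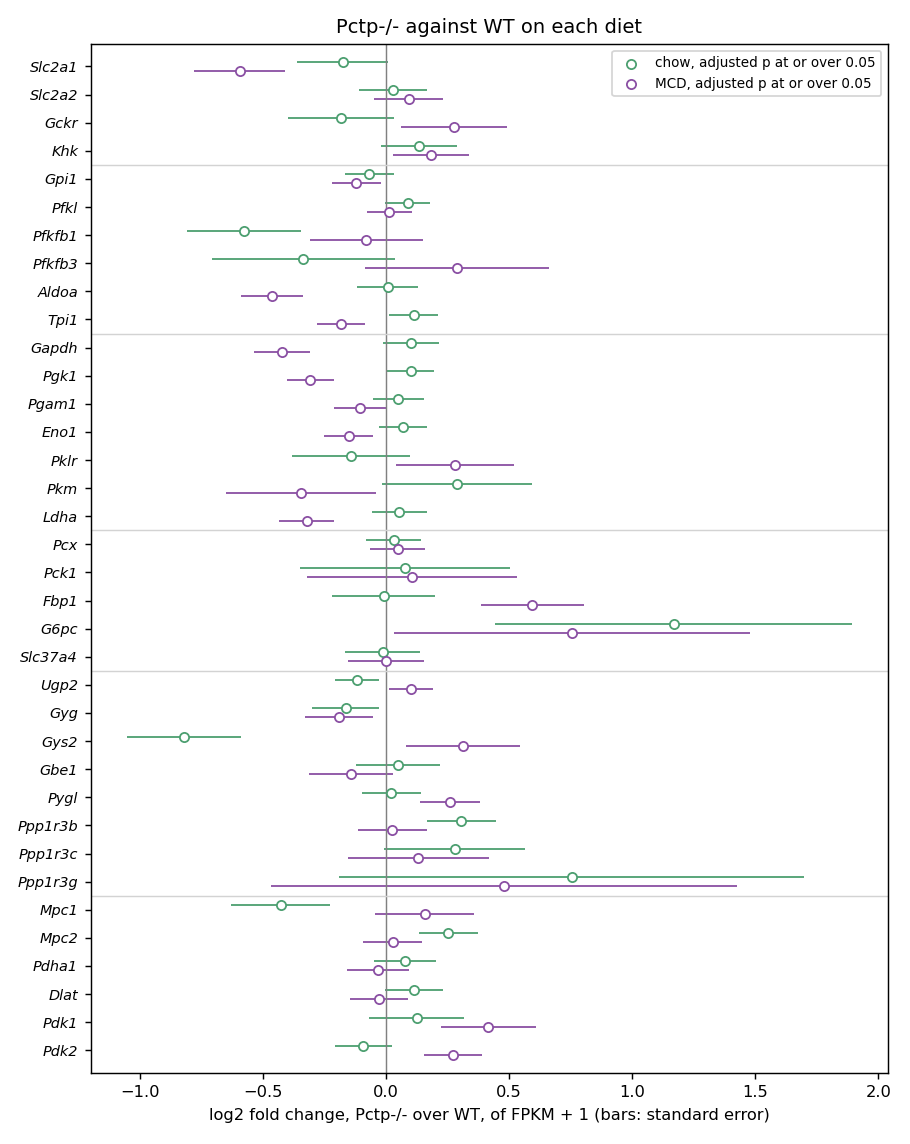
The log2 fold change of each member, Pctp-/- over WT, on chow (green) and MCD (purple), with bars of 1 standard error. All points are open since no adjusted p was under 0.05, and Gys2 on chow (-0.82) and Slc2a1 on MCD (-0.59) lie farthest to the left for each diet.

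The members differed in how much they varied between mice of a group. The SD within groups on the log2 scale was 1.42 for Ppp1r3g, 1.09 for G6pc, 0.64 for Pck1 and 0.55 for Pfkfb3, and 0.09 for Pfkl and Ugp2, with a median of 0.19 over the members and 0.17 over all tested genes. Pctp-/- replicate 2 on MCD had the highest G6pc, Pck1 and Ppp1r3g (8.69 FPKM) of its diet, and of the genes that regulate glucose use, Txnip was at 75.8 FPKM there against 15.3 to 39.9 in the other MCD livers. Pctp-/- replicate 1 on chow had the lowest Gckr (89.3 FPKM) and the highest Ppp1r3g (33.4 FPKM) of all livers, along with Mlxipl, which encodes the glucose-sensing factor ChREBP, at 67.5 FPKM against 160.3 to 212 in the other chow livers. These livers were picked out for their values, which are a description.

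Other genes of the same pathways were read from a list of 95, of which 82 passed the filter. On MCD 50 of these were called in WT, 23 higher and 27 lower, and 46 in Pctp-/- mice, 21 higher and 25 lower, and 37 in the same direction in both, 16 higher and 21 lower. These shares, 61% in WT and 56.1% in Pctp-/- mice, lay near the 57% and 50.3% of all tested genes. Among 26 regulators, 21 were called in WT and 18 in Pctp-/- mice, 16 and 13 of them lower, with median log2 fold changes of -0.56 and -0.55. Of the other gluconeogenesis genes 4 of 10 were called in each genotype, 2 lower in WT and 3 in Pctp-/- mice. Of the other glycogen genes 7 of 18 were called in WT and 9 in Pctp-/- mice. Of the other sugar kinases, isozymes and transporters 14 of 21 and 11 of 21 were called, and of the other mitochondrial pyruvate genes 4 of 7 in each genotype, all higher.

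The largest rise among those called in both genotypes was that of Pdk4, the pyruvate dehydrogenase kinase of fasting, from 0.881 to 1.54 FPKM to 13.0 to 34.8 in WT and from 1.60 to 3.82 to 10.01 to 24.8 in Pctp-/- mice. Its log2 fold changes were 3.43 (standard error 0.36, adjusted p = 9.09e-06, limma) and 2.31 (standard error 0.36, adjusted p = 0.000224), opposite in sign to those of Pdk2. Next came Ldhb, the lactate dehydrogenase subunit of oxidative tissues, with log2 fold changes of 1.82 in WT and 1.63 in Pctp-/- mice. Slc16a7, a carrier of lactate and pyruvate, rose by 1.47 and 1.80 on the same scale. The phosphohexose mutase genes Pgm3 and Pgm2 rose by 1.73 and 1.42 in WT and by 1.18 and 1.14 in Pctp-/- mice. Pgm1, of the same family and at a higher level, went the other way. It was at 79.7 to 87.3 FPKM in WT chow and 47.7 to 55.7 in WT MCD livers. In Pctp-/- livers it was at 81.5 to 91.8 FPKM on chow and 58.5 to 66.5 on MCD.

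By the mean of both genotypes, the largest falls were those of Cebpb, Srebf1, Cebpa, Gaa and Irs2, in that order. Cebpb and Cebpa, factors that bind gluconeogenic promoters, had log2 fold changes of -2.40 and -2.04 in WT and -3.25 and -1.48 in Pctp-/- mice. Srebf1, which drives lipid synthesis under insulin, was at 103 to 134 FPKM in WT chow and 19.4 to 31.2 in WT MCD livers, with log2 fold changes of -2.10 and -2.04. Irs2, an insulin receptor substrate, fell by 1.90 and 1.46, and Gaa, the lysosomal enzyme that degrades glycogen, by 1.69 and 1.75 on the log2 scale. Between the genotypes, only Pck2 and Mlx of the 82 genes were called, and both on MCD. The part of DNA linked to the knockout allele in these calls was not tested either. Pck2, the mitochondrial PEPCK, was at 2.36 to 3.40 FPKM in WT and 1.06 to 1.59 in Pctp-/- MCD livers (log2 fold change -0.71, standard error 0.13, adjusted p = 0.0243, limma). Mlx, the partner of ChREBP, was at 21.8 to 27.7 and 13.5 to 16.9 FPKM (log2 fold change -0.64, standard error 0.12, adjusted p = 0.0301). Both calls were lost without WT replicate 2 or without Pctp-/- replicate 2 or 3 on MCD, and the adjusted p ranged up to 0.718 and 0.465 over the alternatives.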

How the data were processed

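The authors sequenced liver RNA (miRNeasy extraction, Novogene) and deposited FPKM values per gene and library. Their processing notes name mm10, and the aligner and counter are not given in the sources used here. The deposited table of read and mapping percentages, one row per library, was used for depth only. Genes were named by Ensembl identifier from GENCODE M21, and promoters from RefSeq (GRCm38.p6).

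Values were analysed as log2(FPKM + 1) in limma 3.58.1 (R 4.3.3), with 1 mean per group, a trend of variance with level and p-values adjusted by Benjamini-Hochberg over 12466 of 35275 genes, those whose FPKM averaged 0.5 or more. FPKM hold no counts, so no count test was run. Tables and figures were made with pandas 2.3.3 and matplotlib 3.10.9 in Python 3.11.15. The fit was tested on simulated data. No fold change minimum was set.

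The members, lists and motifs were chosen with earlier results of these data known. Given library by library were members called on MCD in both genotypes with a log2 change of at least 1 in either, members called between genotypes, and Pck1, G6pc, Pklr, Gys2, Pygl, Slc2a2, Khk and Pdk2. Of the other pathway genes, the 5 largest rises and the 5 largest falls among those called in both genotypes were named, and any called between genotypes. Other genes were chosen after their values were seen. Groups and replicate numbers come from the labels, where the numbers name different mice, and whether the mice were littermates is not given. No libraries held identical values. Alternatives were the pseudocount (0.1), the filter (none, or a mean of 5), scaling, the libraries fitted, a replicate block, limma's trend and robust options, leaving out each library and a minimum log2 change of 1. Leaving out WT MCD replicates 1 and 2 together was added after seeing the data.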

Additional observations from a re-analysis of the deposited data

How the results depend on the processing

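No called member changed direction under any alternative, and 25 of 37 called values kept their call under all that were run. With each library left out in turn, the members called ranged from 19 to 23 in WT and 14 to 19 in Pctp-/- mice for the diet, and 0 between genotypes. Under the other settings chosen at the start they ranged from 18 to 20 and 15 to 18, and with a minimum log2 change of 1 were 8 and 6. Without WT MCD replicates 1 and 2, 14 were called in WT mice. Companion genes called with a minimum log2 change of 1 were 24 in WT, 18 in Pctp-/- mice and 0 between genotypes on MCD, where the main count was 2. That count was 1 with a pseudocount of 0.1 or median-of-ratios scaling, 0 with no filter, quantile normalization, only the 6 libraries of the comparison or without WT MCD replicates 1 and 2, and 0 to 3 with single libraries left out. The number of companions whose diet effects differed was 0 to 1 with single libraries left out. The causes of these changes were not tested. Leaving out a library also made its group smaller, and these effects cannot be told apart.

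Small values near 0 changed sign. Slc2a2 in WT mice on MCD was -0.10 with median-of-ratios scaling, -0.070 with a common total, -0.048 without WT MCD replicates 1 and 2 and -0.00509 to 0.067 with single libraries left out, and in Pctp-/- mice it ranged from -0.00392 to 0.27. Pklr in WT mice ranged from -0.32 to 0.00598. For Pck1 the genotypes differed by -0.24 to 0.36 in chow livers and by -0.49 to 0.47 in MCD livers, and for G6pc by -0.37 to 1.57 in MCD livers.

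Deviations from the group means correlated weakly between same-numbered libraries of different groups (-0.0972 to 0.2249, median 0.0772, 18 pairs). Libraries of different number were not compared in this way. The numbers name different mice and were not taken to pair them. With a replicate block, 20 members were called in WT and 18 in Pctp-/- mice. Depth per gene is not known from FPKM, and with 3 mice a group, small differences between genotypes could not be resolved.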

Other observations

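Transcripts of skeletal muscle, chosen after their values were seen, were found in 2 of the 12 livers. Ckm (muscle creatine kinase) was at 3.89 and 4.08 FPKM and Myh4 (fast myosin heavy chain) at 3.47 and 3.33 FPKM in WT replicates 1 and 2 on MCD, and both were at 0 in replicate 3. Some muscle isozymes of the sugar pathways were also higher in the same livers than in replicate 3. Pgam2 was at 2.44 and 1.93 FPKM against 0.0626 in replicate 3, and Pygm, the muscle glycogen phosphorylase, at 2.06 and 1.97 against 0.421. Eno3 was at 5.37 and 7.13 FPKM against 2.45. Pgam2 was at 0.494 to 1.25 FPKM in the chow livers, in which Acta1 and Ckm were at 0, and at 0 to 0.0633 in Pctp-/- livers on MCD.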
